A study of Mus musculus with 4 samples.

Results

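ARID1A peaks were examined around 5 genes that encode transcription factors of the pancreatic acinar cell: Ptf1a, Rbpjl, Rbpj, Gata4 and Gata6 (NCBI Gene 19213, 19668, 19664, 14463 and 14465). A peak belonged to a gene when it overlapped a fixed window on the mouse build mm9. That each window holds its gene was not checked, since no mm9 annotation was used here, so a count per gene is a count per window. The windows were chr2:19200000-19520000 for Ptf1a, chr2:164100000-164370000 for Rbpjl, chr5:53750000-54160000 for Rbpj, chr14:63700000-63980000 for Gata4 and chr18:10930000-11210000 for Gata6. They held 41 of the 11220 peaks in 4 lists: 16 of 4031 in control replicate 1, 25 of 7112 in control replicate 2, 0 of 57 in EGF replicate 1 and 0 of 20 in EGF replicate 2.

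ARID1A chromatin immunoprecipitation with sequencing was done in 266-6 cells, a mouse line that came from a pancreatic acinar tumour, in 2 groups of 2 libraries. All cells grew in medium with 4.5 g/L glucose and 10% serum and then spent about 14 h without serum. The EGF group next received 40 ng/ml epidermal growth factor for 8 h, and the control group received 0.1% bovine serum albumin, with no genetic change named for either. Whether replicates are separate cultures is not stated, so p-values here take the library as the unit, and the spread between libraries may be technical. No RNA was measured here, so the acinar label was not checked against marker genes. The signal comes from a whole culture, in which fewer cells with ARID1A at a site and less ARID1A per cell cannot be told apart.

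ARID1A is a DNA-binding subunit of the BAF form of SWI/SNF, the ATP-driven complexes that move and evict nucleosomes, and BAF is known to act largely at enhancers. PTF1A, a basic helix-loop-helix protein, pairs with an E protein and with RBPJ or its acinar relative RBPJL to form PTF1, the complex that drives the digestive enzyme genes. RBPJ is also the DNA-binding partner of Notch. GATA4 and GATA6 are zinc finger factors needed for pancreas formation, and GATA6 also maintains acinar identity. EGF receptor signalling is known to push acinar cells towards a duct-like state.

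For each peak the authors' list gives a fold, the reads at the summit over the local background with 1 added to each, and the −log10 p of that summit. The whole number of ChIP reads at the summit and the local input background were recovered from these 2 values (see the processing section). ChIP depth ranged from 1.06 to 1.23 reads per 200 bp over the 4 libraries. Input was deeper for the control lists (0.771 reads per 200 bp) than for the EGF lists (0.506), so input depth and treatment cannot be told apart. Both lists of a group gave the same input depth, so they may share 1 input, which was not checked. Agreement between replicates may then not be independent of the input. No called summit had fewer than 10 reads in the control group or fewer than 21 in the EGF group.

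In control cells, every one of the 5 windows held at least 1 ARID1A peak in both libraries. Rbpjl had 5 and 12 peaks in control replicates 1 and 2, Gata4 had 5 and 7, Rbpj 4 and 4, Ptf1a 1 and 1, and Gata6 1 and 1. Merging control peaks that overlapped gave 29 regions, of which 10 were in both lists, 5 in replicate 1 alone and 14 in replicate 2 alone. The 10 shared regions were split as 1 at Ptf1a, 4 at Rbpjl, 2 at Rbpj, 2 at Gata4 and 1 at Gata6.

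**Figure D1:**
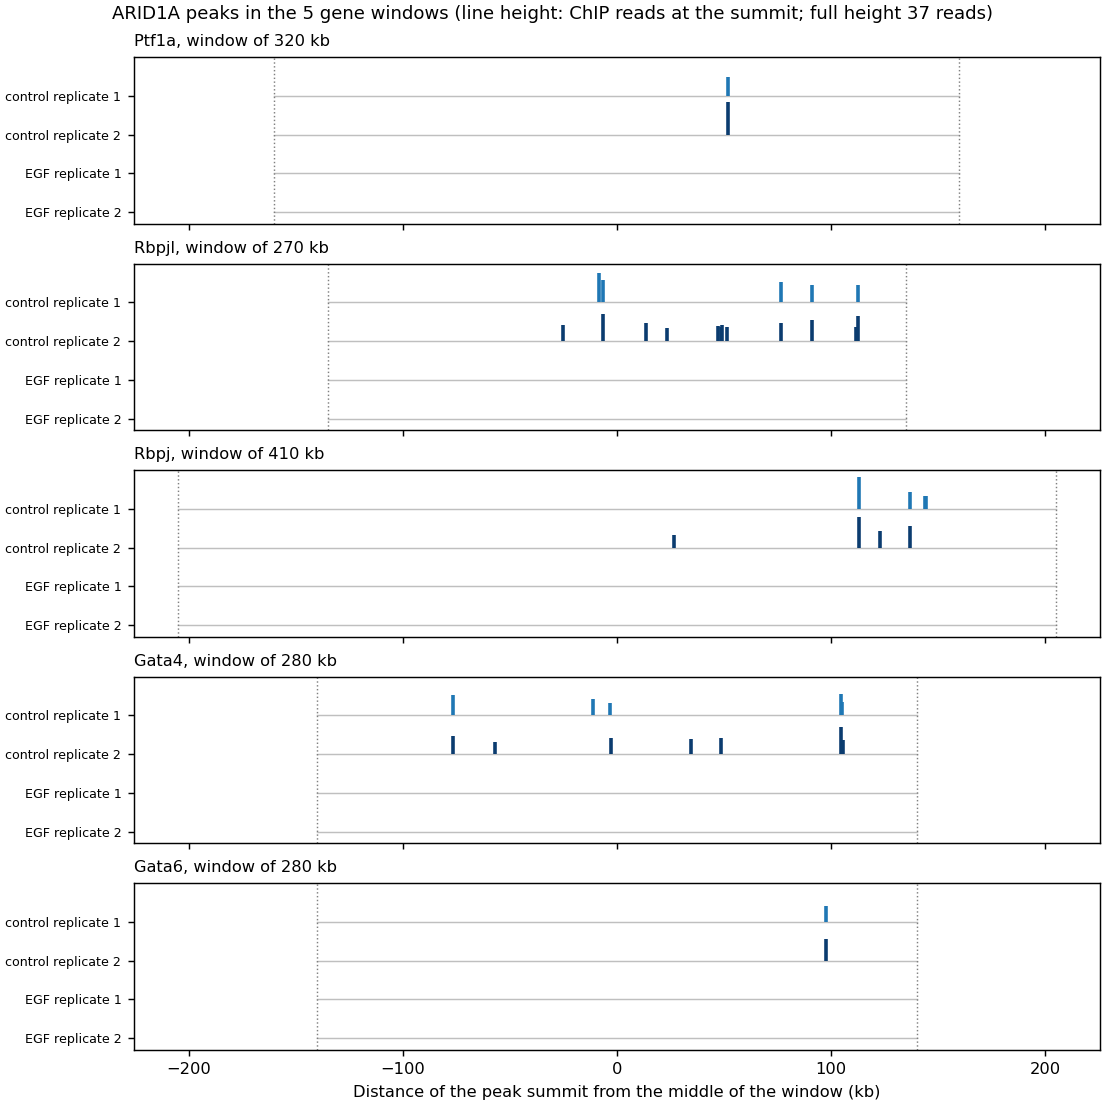
Peak summits by their distance in kb from the middle of each gene window (x axis; dotted lines mark the window ends), with 1 track per library and line height showing ChIP reads at the summit, up to 37 reads. Control tracks carry 16 and 25 peaks over the 5 windows, and all EGF tracks are empty.

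The window of Ptf1a, which encodes the defining subunit of PTF1, held a single region that was found in both control lists. The peak lay at chr2:19412016-19412335 in control replicate 1 and at chr2:19411740-19412357 in control replicate 2. Its summits were 6 bp apart, the closest match among the 10 shared regions, and lay 52.1 kb to the right of the window's middle. The reads at the summit were 21 in control replicate 1 and 37 in control replicate 2, and the fold was 7.34 and 13.1. Divided by the genome mean of its library this was 17.7 and 32.6 times, or 25.2 ± 10.5 (SD, n = 2). The peak ranked 861 of 4031 by score in replicate 1 and 41 of 7112 in replicate 2, the highest percentile (99.4) of any peak in the 5 windows. A window with 1 peak is not unusual: of 8164 tiles of 320 kb laid end to end along the chromosomes, 26.8% and 35.9% held a peak of control replicates 1 and 2.

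Rbpjl encodes the acinar partner of PTF1A and, by the order of protein-coding genes in RefSeq's GRCm38.p6 annotation, lies between Matn4 and Sdc4. Its window had the highest peak density of the 5, at 18.5 and 44.4 peaks per Mb in control replicates 1 and 2. In replicate 1 the lead was narrow, since Gata4 also had 5 peaks, or 17.9 per Mb, in a slightly longer window. Chromosome 2 as a whole had 1.13 and 2.05 peaks per Mb. Of 9679 tiles of 270 kb, 23.8% and 32.4% held any peak, and 0.806% and 0.134% held as many as this window. The count differed between the replicates, with 8 of its 13 regions called in replicate 2 alone.

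The 4 shared regions at Rbpjl differed in strength and in local input. The peak nearest the window's middle, at chr2:164228508-164228745 in replicate 1 and chr2:164228389-164228730 in replicate 2, had 25 and 30 reads but a fold of only 4.32 and 5.09. The local input there was 3.89 and 4.15 times the genome-wide background. At chr2:164326233-164326458 and chr2:164326201-164326433 the reads were fewer, 20 and 24, and the fold higher, 7.01 and 8.66, over an input of 1.30 times the background in both. The region with summits at 112.7 and 112.6 kb from the middle had 19 and 28 reads, and the one at 76.8 and 76.9 kb had 23 and 20.

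Control replicate 1 alone had a peak at chr2:164226615-164227107, with 33 reads and the lowest fold of all 41 peaks, 3.75. Its local input was the highest of the 41, at 6.48 times the genome-wide background. Control replicate 2 alone had a run of 4 peaks within 4.76 kb, from chr2:164282007 to chr2:164286762, with 16 to 18 reads each. Its other 4 unshared peaks had 15 to 20 reads and a fold of 4.31 to 5.94. The part of local input in these calls was not tested.

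PTF1 is known to bind a pair of elements, an E-box of the form CANNTG and a site for RBPJ or RBPJL with the core TGGGAA. The 250 bases before the annotated starts of Ptf1a and Rbpjl are shown because these genes encode subunits of that complex and differ in peak number. Over both control lists the Rbpjl window held the most peaks, though in replicate 1 no more than Gata4. The Ptf1a window, with Gata6, held the fewest. The sequences are RefSeq's on GRCm38.p6, plus strand, at chr2:19445413-19445662 for Ptf1a and chr2:164402944-164403193 for Rbpjl. These positions are of another build than the peaks, so whether a peak covers either stretch was not analysed here. Capitals mark TGGGAA, any CANNTG, and also AGATAA, a form of the GATA factor motif, searched on both strands.
Ptf1a: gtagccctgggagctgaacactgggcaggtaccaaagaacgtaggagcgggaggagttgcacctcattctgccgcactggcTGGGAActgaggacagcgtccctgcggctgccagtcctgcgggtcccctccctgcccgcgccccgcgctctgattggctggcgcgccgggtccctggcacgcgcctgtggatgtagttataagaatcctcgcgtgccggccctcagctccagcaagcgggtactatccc
Rbpjl: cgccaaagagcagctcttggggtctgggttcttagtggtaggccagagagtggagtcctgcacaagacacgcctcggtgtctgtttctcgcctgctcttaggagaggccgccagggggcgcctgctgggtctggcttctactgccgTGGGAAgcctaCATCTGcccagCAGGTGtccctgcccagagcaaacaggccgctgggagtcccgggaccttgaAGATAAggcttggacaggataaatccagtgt

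In the Rbpjl stretch, TGGGAA began 104 bases before the start. It was followed by CANNTG words that began 93 bases (CATCTG) and 82 bases (CAGGTG) before the start, with 16 bases between TGGGAA and the latter, and AGATAA began 31 bases before it. The Ptf1a stretch held TGGGAA, 169 bases before the start, and no CANNTG or AGATAA. Over all 32851 RefSeq stretches of that length, 21.6% held TGGGAA, 66.2% CANNTG, 17.2% CAGGTG, 9.99% AGATAA, and 3.91% both TGGGAA and CAGGTG. These matches describe letters, not bound sites. RefSeq promoter entries were matched for 3 of the 5 genes, and the Rbpj entries are not printed.

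Rbpj encodes the DNA-binding factor shared by PTF1 and Notch signalling, and its neighbours are Smim20 and Cckar. All 8 peaks of its window, 4 in each control list, lay to the right of the middle. The peak with the most reads in each list was at chr5:54067988-54068326 in replicate 1, with 36 reads and a fold of 8.15, and at chr5:54067822-54068398 in replicate 2, with 34 reads and a fold of 8.04. At 30.2 ± 0.313 times the genome mean (SD, n = 2), it was both the highest of the 10 shared regions and the one with the smallest spread between replicates. The second shared region, at chr5:54091823-54092132 and chr5:54091854-54092210, had 19 and 24 reads and a fold of 6.69 and 8.66, so its fold was the higher one in replicate 2.

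The remaining Rbpj peaks were found in 1 list each and had fewer reads than both shared peaks of that list. Replicate 1 alone had peaks with 14 and 15 reads at chr5:54098905-54099132 and chr5:54099220-54099475. Replicate 2 alone had 14 reads at chr5:53981602-53981801 and 19 reads at chr5:54077774-54077993. The density of 9.76 peaks per Mb in both lists stood against 2.08 and 3.69 for chromosome 5. Of 6370 tiles of 410 kb, 31.6% and 40.5% held a peak, and 4.03% and 10.6% held at least 4.

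Gata4 and Gata6 encode closely related factors, and their windows of equal length differed in peak number. Gata4, between Neil2 and Blk, had 17.9 and 25.0 peaks per Mb in control replicates 1 and 2, against 1.34 and 2.48 on chromosome 14. Gata6, between Mib1 and Rbbp8, had 3.57 in both, against 0.807 and 1.36 on chromosome 18. Of 9332 tiles of 280 kb, 24.4% and 33.0% held a peak, as the Gata6 window did, and 0.986% and 1.31% held as many as the Gata4 window.

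The Gata4 peak with the most reads in each list lay at chr14:63944673-63945043 in replicate 1, with 24 reads and a fold of 7.77, and at chr14:63944659-63945286 in replicate 2, with 31 reads and a fold of 10.3. A weaker peak followed close by in each list, at chr14:63945225-63945481 with 15 reads and at chr14:63945399-63945693 with 16, and these 4 peaks chained into 1 region. The other shared region, at chr14:63763052-63763466 and chr14:63762871-63763516, had 23 and 20 reads and a fold of 7.99 and 7.30, so in replicate 1 its fold was the higher of the 2 shared regions. Close to the window's middle, replicate 1 had a peak at chr14:63836785-63836990 with 14 reads and replicate 2 one at chr14:63837013-63837233 with 18, separated by 22 bp and so counted as unshared. Replicate 1 alone also had 18 reads at chr14:63828738-63829086, and replicate 2 alone had 3 more peaks with 14, 17 and 18 reads.

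The single Gata6 region was called at chr18:11167516-11167851 in replicate 1 with 18 reads and a fold of 7.18, and at chr18:11167504-11167767 in replicate 2 with 24 reads and a fold of 9.77. It was the only one of the 29 regions where the local input was no higher than the genome-wide background in the lists that called it. Its reads were 18.2 ± 4.2 times the genome mean (SD, n = 2). Its summits lay 42.3 and 42.4 kb from the window's edge, so a window without its outer 50 kb held 0 peaks at Gata6 in any list.

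Over the 5 windows together, control peaks were dense but of ordinary strength. The windows had 10.3 and 16.0 peaks per Mb in control replicates 1 and 2, against 1.54 and 2.72 over the chromosomes, a ratio of 6.28 ± 0.539 (SD, n = 2). That SD is over the control lists, not over windows. Without the Rbpjl window the ratio was 5.54 and 3.71. The windows did not share the density evenly: in both lists Ptf1a had 3.125 and Gata6 3.57 peaks per Mb. The median peak stood at percentile 54.1 and 54.5 of its list by score, from 10.1 to 95.6 in replicate 1 and from 2.76 to 99.4 in replicate 2. The median fold was 6.07 and 5.94, beside 5.84 in each full list, and the median summit had 19.5 and 18 reads, beside 19 and 18. Local input at the median peak was 1.45 and 1.56 times the genome-wide background, beside 1.35 and 1.40 over all peaks. The part of input, or of gene density, in the peak density was not tested.

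Within 10 kb of a window's middle there were 3 of 16 peaks in control replicate 1 and 2 of 25 in replicate 2, at Rbpjl and Gata4. That stretch is a small part of windows 270 to 410 kb long, so these counts do not show that peaks avoid the middle. The middle of a window is not a gene start, and the distance to the start was not analysed here. Beyond the windows the nearest control peak was 106 kb from an edge, at Gata6. On the right side of the Ptf1a window the next peak in either control list was 4671 kb away, and on its left side 280 and 334 kb. To the right of the Rbpj window it was 10123 kb in replicate 1 and 285 kb in replicate 2. Peaks in the windows were 206 to 493 bp wide in replicate 1 and 200 to 799 bp in replicate 2, with medians of 315 and 266 beside 288 in each full list.

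**Figure D2:**
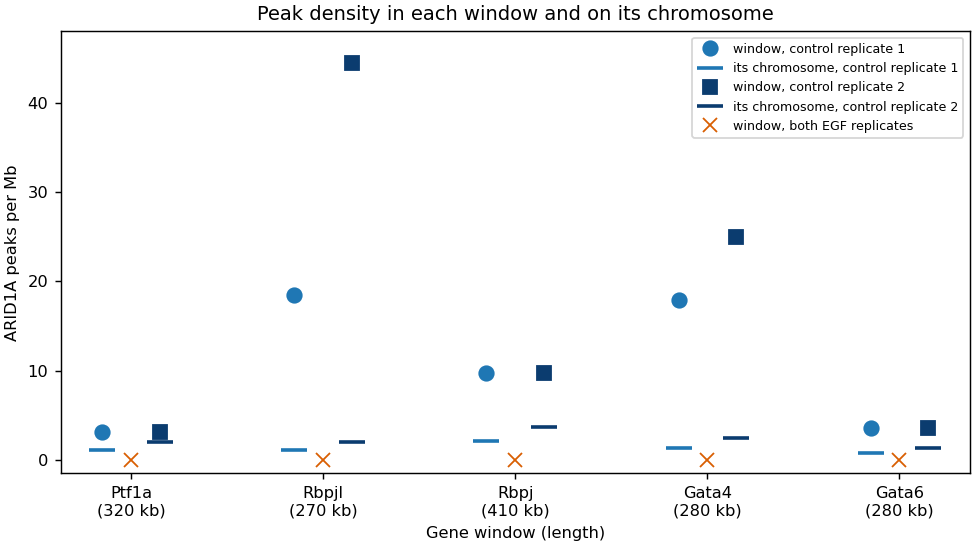
ARID1A peaks per Mb (y axis, linear) in each gene window (x axis) for the control replicates, with horizontal marks for the chromosome that holds the window and crosses for the EGF replicates at 0. Rbpjl reaches 18.5 and 44.4 and Gata4 17.9 and 25.0, while Ptf1a and Gata6 stay below 4 in both replicates.

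The control replicates shared peaks in these windows about as often as elsewhere. Of 16 peaks in replicate 1, 11 overlapped a replicate 2 peak by at least 1 bp (68.8%, exact Clopper-Pearson 95% interval 41.3% to 89.0%), against 71.3% of all replicate 1 peaks. Of 25 peaks in replicate 2, 11 overlapped a replicate 1 peak (44.0%, interval 24.4% to 65.1%), against 40.4% of all. The intervals cover counting error only and treat peaks as independent. Some peaks lay close together in the same window, so the intervals may be too narrow. Peaks found in both lists had a median of 21.0 and 24.0 reads in replicates 1 and 2, and the other 5 and 14 peaks had 15.0 and 17.0, closer to the fewest reads at any call. The median distance between summits was 63 bp over the 10 shared regions and 64 bp over all 2808 shared regions. The fold was higher in replicate 2 at 7 of the 10, with log2 ratios from −0.22 to 0.83, and at 1714 of the 2808. The log2 ratio at Ptf1a, 0.83, was the largest of the 10, and the SD over all shared regions was 0.38.

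**Figure D3:**
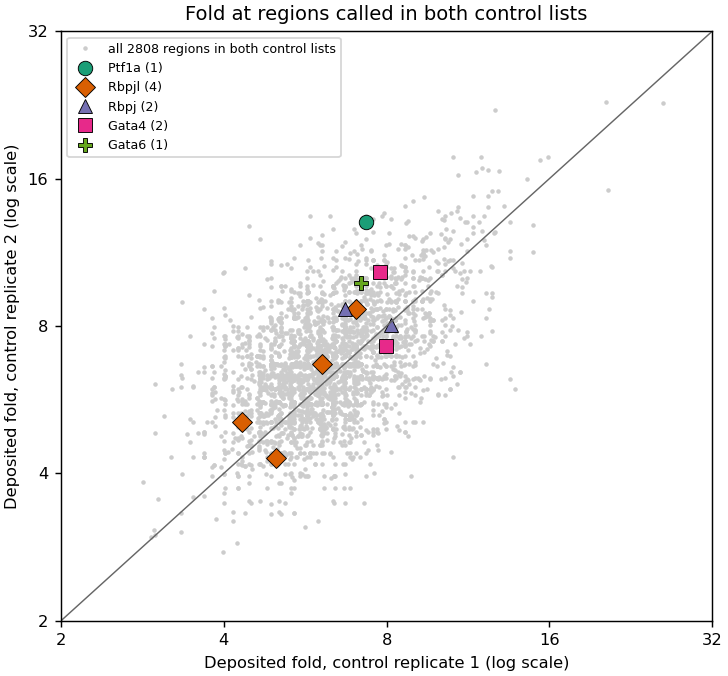
Deposited fold in control replicate 2 (y axis) against control replicate 1 (x axis), both on log scales, for all 2808 regions in both lists (grey) and the 10 in the gene windows (coloured by gene), with the line of equal fold. The Ptf1a region lies farthest above the line among the 10, at 7.34 and 13.1, and the Rbpj region with the most reads lies nearly on it at 8.15 and 8.04.

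After EGF, none of the 5 windows held a peak in either library. The number of peaks over the windows was 16 and 25 in the control libraries, 20.5 ± 6.36, and 0 and 0 in the EGF libraries (SD, n = 2 each), a difference of −20.5. The groups did not overlap. Neither did the whole lists, with 4031 and 7112 control peaks against 57 and 20 EGF peaks, so a fall in number was not particular to these windows. A two-sided exact permutation test gave p = 0.333, which is the lowest value possible with so few libraries, so no difference could pass the usual threshold in this design. Of the 29 control regions, 0 overlapped an EGF peak, while 0.743% of all 8206 merged control regions did. A share of 0.743% of 29 regions is less than 1 region, so the count of 0 at these genes is near that background. The nearest EGF peaks lay 2.84 Mb from the Rbpjl window, 3.44 Mb from Rbpj, 43.8 Mb from Gata4 and 98.8 Mb from Ptf1a, and chromosome 18 had none.

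The weakest called EGF peaks were stronger than the weakest control peaks, so the control peaks were set on the EGF scale. The −log10 p of each control summit was recomputed at the input depth of the EGF lists, holding its reads over the genome mean and its relative local input fixed, and compared with the weakest called EGF peak. That peak had a −log10 p of 7.07 in EGF replicate 1 and 8.00 in EGF replicate 2. At EGF replicate 1, 7 of the 16 peaks of control replicate 1 and 11 of the 25 of control replicate 2 would have reached it, against 33.0% and 34.0% of all peaks. At EGF replicate 2 these were 3 and 7 peaks, against 20.6% and 21.5%. The comparison takes the weakest called peak for the bound and the local input of the control for that of EGF, and neither was tested.

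Of the 10 shared regions, 7 would have reached the weakest EGF replicate 1 peak from both control replicates. They were the single regions at Ptf1a and Gata6, both at Rbpj, both at Gata4 and 1 of the 4 at Rbpjl. For EGF replicate 2 there were 2, those with the most reads at Rbpj and at Gata4. Their recomputed −log10 p was 12 from both replicates at Rbpj, and 9.29 and 13 at Gata4. The share of all 2808 shared control regions that would have reached either EGF list was not computed. Shared peaks in these windows had more reads by median than the others, so the counts of shared regions cannot be set against the shares of all peaks. The Ptf1a summit gave 7.46 and 17.9, and the Gata6 summit 7.17 and 11.1. The weaker replicate at the Rbpjl region, the second Rbpj region and the other Gata4 region also gave 7.46. These values are close to the bound of 7.07, and the recomputation rounds down to whole counts. The count of 7 regions therefore rests on narrow margins. None of the 7 regions was called with EGF. Of all peaks, shared or not, that would have reached EGF replicate 1, few overlapped a peak there. These were 3.31% and 2.07% of those from control replicates 1 and 2, and for EGF replicate 2 the shares were 2.05% and 1.11%. The same share for shared regions alone was not computed. The lists give no signal outside called peaks, so these values do not show how much ARID1A was left at the sites.

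**Figure D4:**
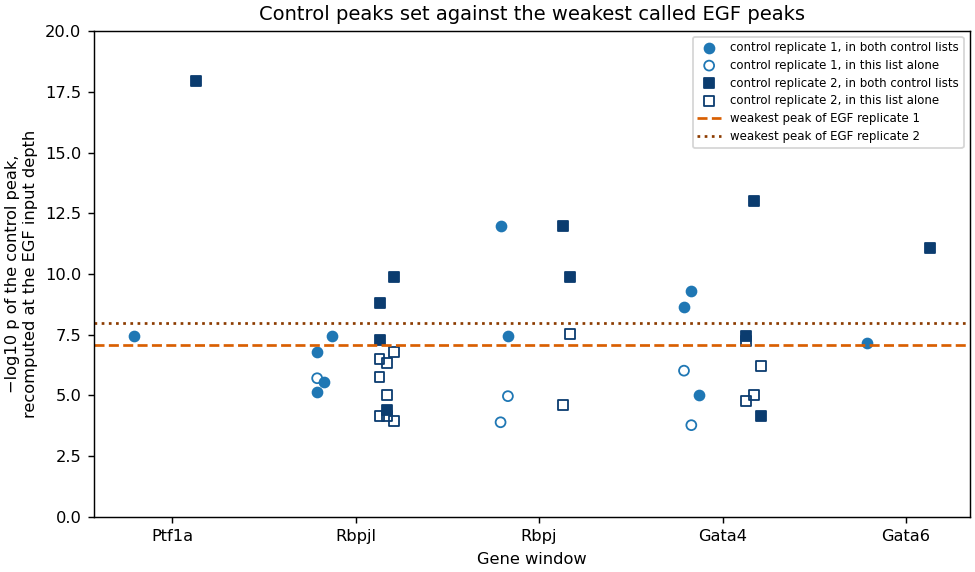
The −log10 p of each control peak in the 5 windows (y axis), recomputed at the EGF input depth, by gene (x axis) with filled marks for peaks in both control lists and open marks for peaks in 1 list; lines mark the weakest called EGF peaks at 7.07 and 8.00. At Ptf1a and Gata6 the marks of both control replicates lie above the lower line, and most Rbpjl marks lie below it.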

How the data were processed

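The submitters' processing notes name the build mm9 and the tools MACS2 (2.1.1.20160309.0), Bowtie2 (2.3.4.2), deepTools (3.0.2) and SAMtools, with no options. The authors deposited 1 MACS2 peak list per library, with positions, a summit offset (other), a score, a fold ratio, a −log10 p and a −log10 q per peak. The deposited score was 10 times the −log10 q, rounded down, in 100% of peaks. Positions are printed counted from 1.

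Reads at a summit and local input were solved from the deposited fold and −log10 p, with a scaling factor for each library, a Poisson tail as in MACS2, and input counted in 1 kb and 10 kb windows for reads extended to 200 bp. These settings are inferred from the values. In 100% of peaks exactly 1 solution was found within a tolerance of 2e-04. The method was tested on simulated data. Percentiles rank peaks by score within a list. Tiles run from the start of each of 20 chromosomes to its last called peak and count peak midpoints.

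Groups were compared by an exact permutation test over the 6 assignments of libraries (Python 3.11.15, scipy 1.17.1). All 5 genes and all peaks in their windows are accounted for, and those in both control lists are described singly. Alternatives were a q of 0.005, merging within 500 bp, windows without their outer 50 kb, midpoints, 50% overlap, other rankings, a block and each library left out. The genes, windows and lists were chosen with earlier results of these data known. Without an mm9 annotation or genome, exons, introns, promoters, peak sequences and other acinar genes were not analysed here. RefSeq's GRCm38.p6 tables gave gene order and promoter sequences only.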

Additional observations from a re-analysis of the deposited data

How the results depend on the processing

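The 10 results were recomputed to give 80 alternative values, of which 74 held (a count or value within its set limits) and 6 moved. The median score percentile, 54.3 as the mean of the control lists, was 56.9 with a q of at most 0.005, 55.7 ranked by fold, 53.9 ranked by reads and 45.7 in windows without their outer 50 kb. It was 54.1 to 54.5 with a control library left out, and the small spread between lists, 0.295, makes any shift count. The peak density relative to the chromosomes, 6.28, was 4.62 without the Rbpjl window and 5.82 to 6.67 under the other alternatives. At Gata6 the difference of −1 peak became 0 in windows without their outer 50 kb. The difference in peak number over the windows ran from −25.0 without control replicate 1 to −15.0 in the shorter windows. At Rbpjl it was −8.5, but −12.0 without control replicate 1 and −5.0 without control replicate 2. With the replicate number as a block, a paired comparison, the difference was −20.5 (exact permutation p = 0.5, the smallest for 2 pairs), and the libraries share only a number. The overlap of control replicate 1 peaks with replicate 2 ran from 50% to 75%. No control region overlapped an EGF peak under any of 8 alternatives, but with no EGF peak in any window these could only give 0. For the same reason, leaving out an EGF library could not change a difference in peak number. Such fixed values are counted among the 74 that held, so that count does not measure stability. Ranking by reads, counting peaks within 100 bp as overlapping, leaving out the Rbpjl window and the recomputed −log10 p were chosen after the data were seen. With 2 libraries per group, no test here can speak to stability, and a site missing from the EGF lists is not shown to lack ARID1A.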
